A study of Mus musculus with 37 samples.

Results

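Livers of male mice carrying 1 of 2 substitutions of the STAT5B tyrosine Y665 were compared directly: histidine in Y665H mice and phenylalanine in Y665F mice. The comparison holds 13 of the 37 libraries of the series, chosen by the genotype and sex labels, each with Ddx3y counts above 0. These are 4 Y665H and 9 Y665F libraries. All mice were C57BL/6 and 2 months old, and no treatment is named. The zygosity, the way the alleles were made and the relation of the mice to each other are not given in the sources used here, so p-values measure the spread between these libraries. Livers of 6 male mice with wild-type (WT) STAT5B were the reference level, and 12 female livers, 6 of each substitution, served for a test of whether the contrast differed between the sexes. The measurement was total RNA sequencing, counted per gene.

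STAT5B carries the growth hormone signal into the liver cell nucleus: the receptor-bound kinase JAK2 phosphorylates it, its SH2 domain lets phosphorylated molecules join, and the joined form binds DNA. In rodents the pituitary of males releases growth hormone in pulses and that of females more evenly, and hepatocyte STAT5B follows that rhythm. The resulting sex-biased liver genes include the male-biased urinary proteins (Mup genes) and the female-biased Cyp3a and Sult2a enzymes. The repressors BCL6, higher in males, and CUX2, found in females, are known to help keep these programmes apart. SOCS2 and CISH are induced by STAT5 and dampen its signal, and IGF1 carries the growth signal to other tissues.

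Between 50644147 and 66826156 counts fell in genes in the Y665H libraries, and between 58718870 and 73937726 in the Y665F libraries. Counting error is therefore small for all but genes of a few counts. Hepatocyte markers were high in all 13 livers, with a summed level of 80985 to 105153 CPM (counts scaled to library size) in Y665H and 134340 to 153385 CPM in Y665F. Albumin made up most of that gap: of the 10 markers 4 were higher in Y665H and 2 lower, with a median log2 fold change of 0.08. On the first principal component of the 19 male libraries, which held 67.8% of the variance, the Y665H libraries scored from -46.6 to -37.1, the WT libraries from -49.7 to -44.0 and the Y665F libraries from 47.7 to 55.0. Y665H replicates 2 and 3 stood apart from replicates 1 and 4 on the second component, at 36.0 and 31.4 against 9.70 and 11.8. Y665F replicate 2 stood alone on the third component, at -48.4. Results whose calls depend on these 3 libraries are also given without them. The share of alignments left uncounted because they fit more than 1 place was 26.3% ± 3.05 (SD, n = 4) in Y665H and 21.7% ± 1.03 (SD, n = 9) in Y665F (exact 2-sided permutation test, p = 0.00559, adjusted over 3 library measures p = 0.00839). The share in no gene was 14.3% ± 1.77 (SD, n = 4) against 15.8% ± 1.85 (SD, n = 9) (exact 2-sided permutation test, p = 0.193, adjusted p = 0.193).

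**Figure D1:**
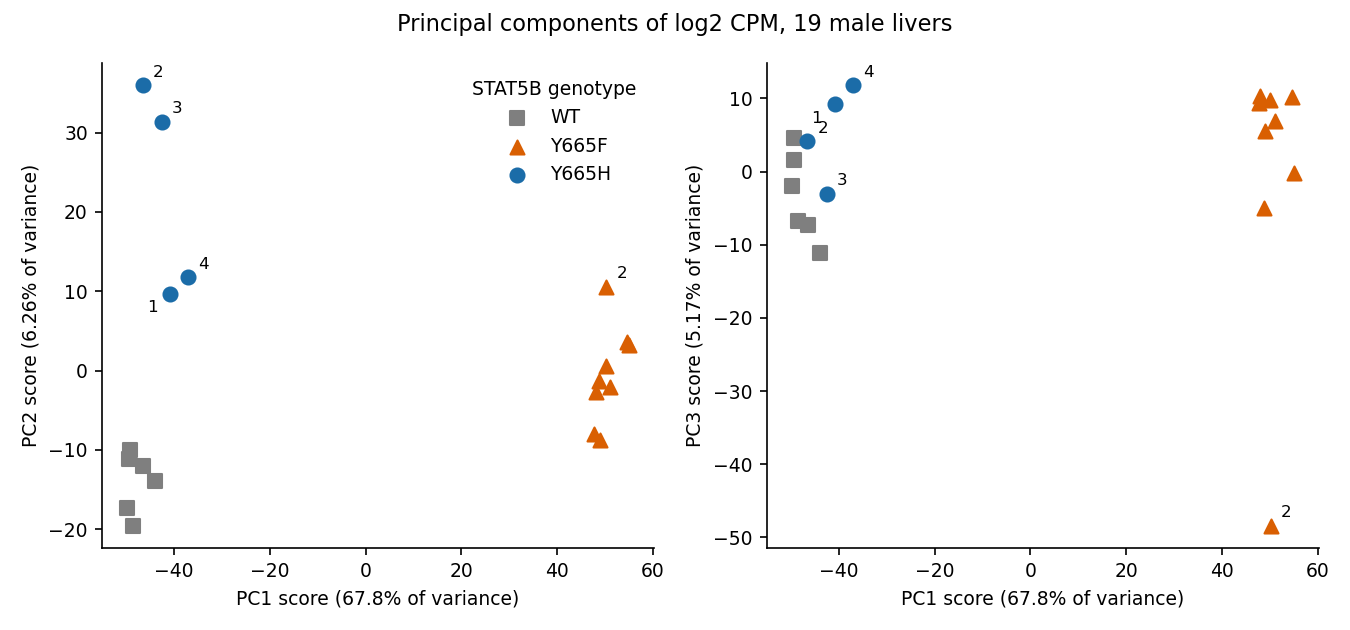
Scores of the 19 male livers on the first component (x axis) against the next ones (y axes), from log2 CPM of the tested genes; each point is 1 library, and numbers mark the Y665H replicates and Y665F replicate 2. The Y665H libraries lie between -46.6 and -37.1 on the first component, beside WT, and the Y665F libraries between 47.7 and 55.0.

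The 2 substitutions gave livers that differed in a large part of their expressed genes. Of 15152 genes tested, 6319 (41.7%) passed an adjusted p of 0.05 in edgeR's quasi-likelihood test: 3111 (20.5%) were higher in Y665H and 3208 (21.2%) were lower. With upper-quartile scaling, 38.4% of the calls were higher against 49.2% in the main fit. Calls made up 29.7% of the tested genes without the 3 libraries that stood apart and 29.4% with a component of clock gene expression as covariate, and counts from those fits are to be read against these shares. Of the 17 genes behind that component, 13 were called between the substitutions, so it can absorb part of the contrast itself. For a call lost with it, the clock and the genotype cannot be told apart. A change of 2-fold or more was called for 1256 genes (8.29%), 337 higher and 919 lower. In 3637 genes (24.0%) the 4 Y665H libraries lay entirely above or entirely below the 9 Y665F libraries, 1844 above and 1793 below. The median log2 fold change over all tested genes was -0.0008. Throughout, log2 fold changes are of Y665H relative to Y665F, with SE from the same fit.

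Urinary protein and male-type cytochrome P450 genes were the furthest above Y665F. Mup7, one of the major urinary proteins that males excrete as scent carriers (chr4:60066469-60070475, GRCm38), had 920, 3239, 2289 and 414 CPM in Y665H replicates 1 to 4. In Y665F its lowest, median and highest values were 0.0264, 0.0964 and 0.494 CPM. The ranges did not overlap, and replicates 2 and 3 were the highest of the Y665H livers. The log2 fold change was 13.58 ± 0.60 (adjusted p = 3.33e-19). Mup14 (chr4:61300023-61304000) had 118, 409, 289 and 73.2 CPM in Y665H and 0, 0 and 0.0847 CPM in Y665F, a log2 fold change of 13.43 ± 0.53 (adjusted p = 8.63e-19). It showed the same order among the Y665H livers as Mup7. Cyp4a12a (chr4:115299046-115332815), a fatty acid and arachidonic acid omega-hydroxylase of male liver, had 264, 366, 196 and 338 CPM against 0.0492, 0.0670 and 0.113 CPM (log2 fold change 11.88 ± 0.75, adjusted p = 6.91e-14). Its near copy Cyp4a12b had 85.5, 85.7, 75.1 and 116 CPM against 0.0139, 0.0328 and 0.106 CPM. These 2 genes differed less among the Y665H livers than the Mup genes. Hsd3b5, a male-specific member of the 3-beta-hydroxysteroid dehydrogenase family, had 312, 386, 313 and 187 CPM against 0.370, 0.651 and 1.10 CPM (log2 fold change 8.79 ± 0.48, adjusted p = 7.61e-17). Mup20, the male pheromone darcin, had 2272, 6114, 4224 and 2594 CPM against 6.60, 9.07 and 11.8 CPM (log2 fold change 8.70 ± 0.49, adjusted p = 1.76e-16). In both genes every Y665H liver lay above every Y665F liver.

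The rest of the 10 highest were Mup9, Obp2a, Tff3 and Cml5. Obp2a, an odorant-binding lipocalin, had 0.220, 0.646, 0.907 and 3.04 CPM in Y665H and 0 counts in all 9 Y665F libraries, so it was at least 251-fold higher, taking 3 counts over the group as the floor. Mup9 had 0.764, 87.8, 41.3 and 1.04 CPM against 0, 0.0141 and 0.0416 CPM, and Tff3, a secreted trefoil peptide of mucous epithelia, had 2.42, 9.48, 9.23 and 1.05 CPM against 0, 0.0138 and 0.0994 CPM. Both were highest in Y665H replicates 2 and 3. Mup9 was above its WT range of 0.279 to 2.74 CPM in those replicates, and Tff3 was above its WT range of 0.164 to 0.714 CPM in all 4. Cml5 had 8.86, 14.8, 10.0 and 14.0 CPM against 0.0138, 0.0298 and 0.166 CPM, with no overlap.

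Enzymes of female liver were the furthest below Y665F. Sult2a5, a sulfotransferase of steroids and bile acids (chr7:13623967-13670807), had 0 counts in all 4 Y665H libraries and 10.4, 14.8 and 18.2 CPM in Y665F, which makes it at least 1220-fold lower over the group. Sult2a3 was likewise at 0 counts in Y665H, against 2.85, 6.64 and 10.2 CPM, and at least 593-fold lower. Both were also at 0 counts in the 6 WT males. Cyp3a41a (chr5:145694049-145720136), a female-specific member of the main drug-metabolising P450 family, had 0.0882, 0.201, 0.0544 and 0.0761 CPM in Y665H and 510, 616 and 680 CPM in Y665F (log2 fold change -12.38 ± 1.11, adjusted p = 3.08e-11). Its neighbours Cyp3a44 and Cyp3a16 ranged from 0.0907 to 0.230 and from 0.0363 to 0.230 CPM in Y665H, and had Y665F medians of 639 and 391 CPM. No Y665H value of these genes came near any Y665F value. A1bg, a plasma glycoprotein of the immunoglobulin superfamily that is female-specific in mouse liver (chr15:60896859-60923012), had 1.43, 0.775, 0.472 and 0.639 CPM in Y665H against 2588, 3795 and 4507 CPM in Y665F (log2 fold change -12.13 ± 1.36, adjusted p = 5.14e-09). Cyp2c69 and Sult3a1 had log2 fold changes of -11.57 and -12.14.

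**Figure D2:**
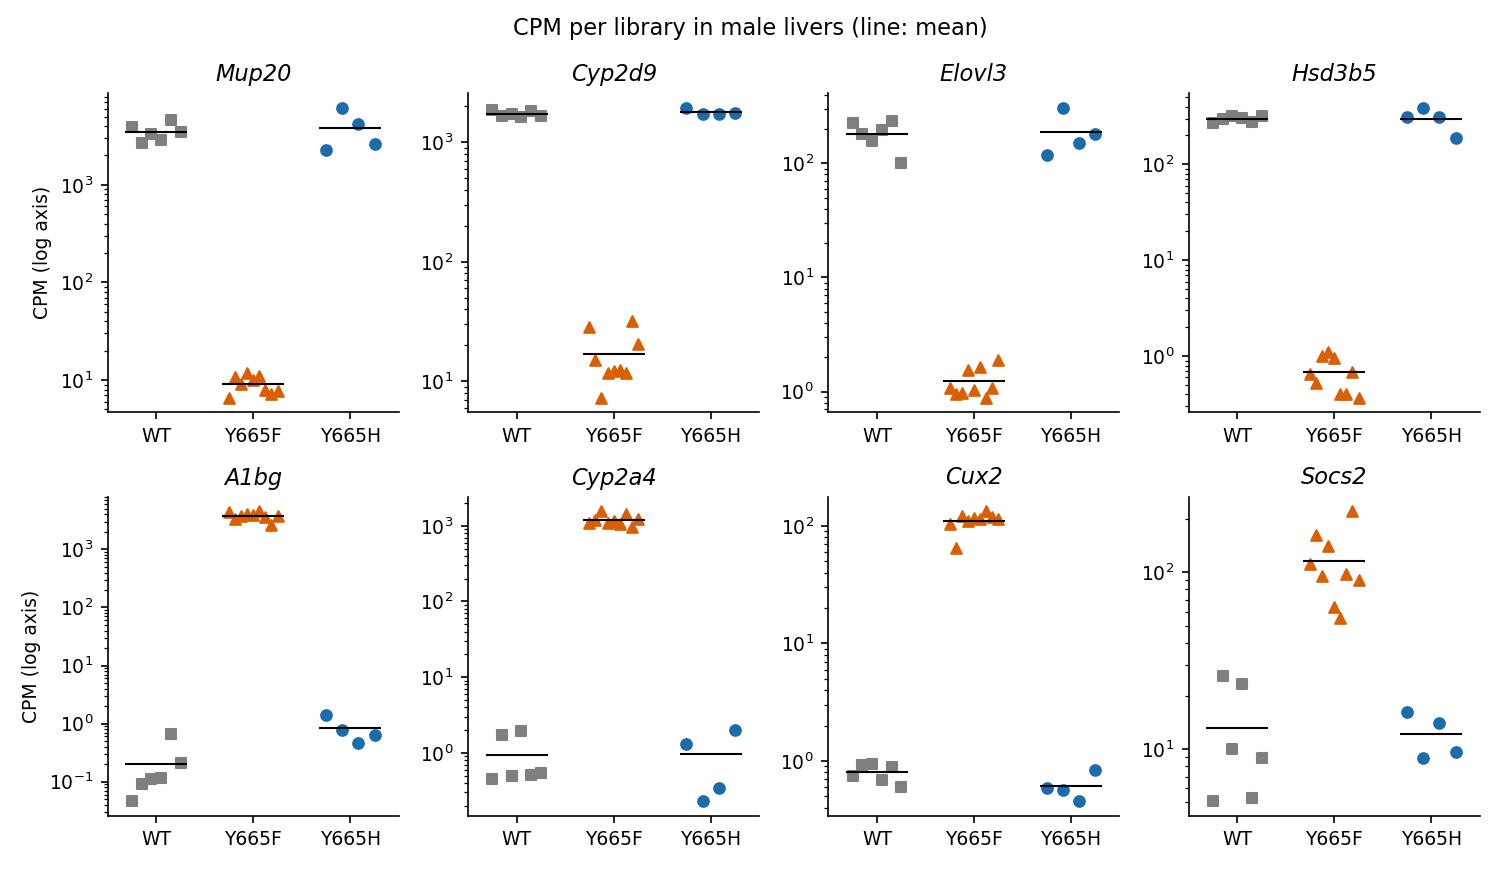
CPM (log y axis) of 4 genes that were higher and 4 that were lower in Y665H, by genotype (x axis); each point is 1 male liver and the line is the mean. The Y665H points lie near the WT level and apart from the Y665F points, as in Cyp2d9, at 1712 to 1929 CPM in Y665H and 7.32 to 32.2 CPM in Y665F.

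The promoters of the 2 highest and 2 lowest of these genes are shown because they head the contrast, from 250 bases before to 50 after the start site (RefSeq, GRCm38.p6, 5′ to 3′ on the gene's strand). The promoters of A1bg, Igfals and Bcl6, chosen after their sequences had been searched, are shown because they hold the palindromic STAT5 motif TTCNNNGAA, in capitals.
Mup7: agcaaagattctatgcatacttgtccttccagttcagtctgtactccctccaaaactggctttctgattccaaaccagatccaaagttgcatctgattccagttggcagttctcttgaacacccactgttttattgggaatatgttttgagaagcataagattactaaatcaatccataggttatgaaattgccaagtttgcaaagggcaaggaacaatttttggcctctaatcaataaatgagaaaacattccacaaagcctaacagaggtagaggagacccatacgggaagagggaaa
Mup14: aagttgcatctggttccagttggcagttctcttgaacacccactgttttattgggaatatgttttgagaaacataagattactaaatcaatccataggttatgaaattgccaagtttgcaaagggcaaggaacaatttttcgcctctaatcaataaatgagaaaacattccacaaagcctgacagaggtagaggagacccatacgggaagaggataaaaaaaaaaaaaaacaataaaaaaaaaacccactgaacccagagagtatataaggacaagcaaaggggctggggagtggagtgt
Sult2a5: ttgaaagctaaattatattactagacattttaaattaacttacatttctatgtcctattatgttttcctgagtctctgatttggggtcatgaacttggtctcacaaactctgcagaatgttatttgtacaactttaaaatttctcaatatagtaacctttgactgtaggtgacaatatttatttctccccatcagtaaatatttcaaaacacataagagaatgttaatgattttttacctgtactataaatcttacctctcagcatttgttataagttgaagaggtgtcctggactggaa
Cyp3a41a: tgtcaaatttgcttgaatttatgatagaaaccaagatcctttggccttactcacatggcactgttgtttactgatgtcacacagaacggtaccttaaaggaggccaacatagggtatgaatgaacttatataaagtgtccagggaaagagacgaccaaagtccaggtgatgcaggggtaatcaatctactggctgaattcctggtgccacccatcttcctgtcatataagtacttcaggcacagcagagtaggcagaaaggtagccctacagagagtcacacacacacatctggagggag
A1bg: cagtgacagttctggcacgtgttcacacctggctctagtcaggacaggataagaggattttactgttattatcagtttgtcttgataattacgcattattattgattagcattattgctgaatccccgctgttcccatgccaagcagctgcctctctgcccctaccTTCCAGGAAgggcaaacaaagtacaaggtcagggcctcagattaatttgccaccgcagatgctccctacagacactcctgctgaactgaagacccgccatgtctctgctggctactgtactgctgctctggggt
Igfals: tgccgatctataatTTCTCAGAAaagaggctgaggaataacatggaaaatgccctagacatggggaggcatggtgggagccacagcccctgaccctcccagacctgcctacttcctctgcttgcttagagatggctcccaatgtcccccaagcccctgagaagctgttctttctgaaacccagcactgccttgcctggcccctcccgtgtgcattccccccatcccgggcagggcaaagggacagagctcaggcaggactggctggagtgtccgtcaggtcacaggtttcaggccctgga
Bcl6: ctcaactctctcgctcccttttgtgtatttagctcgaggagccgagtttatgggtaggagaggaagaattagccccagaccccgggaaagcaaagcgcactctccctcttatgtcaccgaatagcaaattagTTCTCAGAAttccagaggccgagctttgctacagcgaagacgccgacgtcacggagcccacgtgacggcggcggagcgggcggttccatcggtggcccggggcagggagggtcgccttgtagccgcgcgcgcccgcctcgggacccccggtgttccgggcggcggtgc
They lie at chr4:60070426-60070725, chr4:61303949-61304248 and chr5:145720087-145720386 for Mup7, Mup14 and Cyp3a41a, and at chr7:13623717-13624016 for Sult2a5. Those of A1bg, Igfals and Bcl6 lie at chr15:60921221-60921520, chr17:24877594-24877893 and chr16:23988803-23989102. Mup7 and Mup14 were 97.2% identical over 217 aligned bases, and Cyp3a41a was 92.3% identical to its neighbour Cyp3a44 over 300 bases. How reads of such near copies were assigned was not tested. The motif begins 84 bases before the start site in A1bg (TTCCAGGAA), 236 before it in Igfals and 118 before it in Bcl6 (TTCTCAGAA in both). It occurred in none of the other 4 windows. Over all 32851 RefSeq promoters it occurred in 8.30%. Counted per gene, at any of its listed start sites, it occurred in 8.55% of the 11315 tested genes with a promoter. Among these it occurred in 19 of 239 genes (7.95%) called higher by 2-fold or more and in 76 of 656 (11.6%) called lower. For male-biased genes it was 1 of 17 (5.88%), and for female-biased genes 6 of 29 (20.7%). These are counts of letters in a window, not of bound sites.

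Male-biased liver genes were higher in Y665H almost without exception, and female-biased genes were lower. Of 26 tested male-biased genes, 25 were higher and 0 lower, with a median log2 fold change of 3.89; the remaining gene, Serpina12, gave 0.19 (adjusted p = 0.725). The same genes had a median of -4.12 for Y665F relative to WT and of -0.10 for Y665H relative to WT. Cyp2d9, a male testosterone 16-alpha-hydroxylase, had 1929, 1713, 1712 and 1768 CPM in Y665H against 7.32, 12.4 and 32.2 CPM in Y665F (log2 fold change 6.72 ± 0.34, adjusted p = 1.37e-17). Elovl3, a fatty acid elongase, had 118, 306, 151 and 180 CPM against 0.884, 1.07 and 1.901 CPM (log2 fold change 7.25 ± 0.23, adjusted p = 5.73e-24). Neither gene overlapped between the groups, and the 4 Y665H values of Cyp2d9 stood close together. Slco1a1, a transporter of organic anions, had 620.1, 534.6, 493.1 and 404.7 CPM against 8.20, 23.2 and 75.2 CPM, and Gstp1, a glutathione transferase, 1269, 2140, 1701 and 1061 CPM against 227, 305 and 415 CPM. The smallest called difference of the list was in Ugt2b1 (log2 fold change 0.90 ± 0.10, adjusted p = 7.25e-09), a glucuronosyltransferase.

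Of 38 tested female-biased genes, 34 were lower in Y665H and 1 was higher, with a median log2 fold change of -6.59, which stayed -6.59 with the 3 genes without any Y665H count set to their bounds. The medians relative to WT were 5.92 for Y665F and 0.16 for Y665H. Cyp2a4, a female testosterone 15-alpha-hydroxylase, had 1.31, 0.230, 0.345 and 1.98 CPM in Y665H against 969, 1144 and 1545 CPM in Y665F (log2 fold change -10.26 ± 0.69, adjusted p = 1.98e-14). Sult2a1 had 0.132, 0.0861, 0.0544 and 0.0761 CPM against 117, 205 and 239 CPM, and Slc22a26, an organic anion transporter, 0.735, 0.0718, 0.236 and 0.761 CPM against 144, 184 and 263 CPM. All 3 were without overlap. The gene that went the other way was Cib3, a calcium-binding protein, with 0.808, 0.905, 1.83 and 2.12 CPM against 0.0424, 0.0820 and 0.409 CPM (log2 fold change 3.28 ± 0.38, adjusted p = 9.11e-09). Cyp39a1, Ntrk2 and Gna14 did not pass the test.

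**Figure D3:**
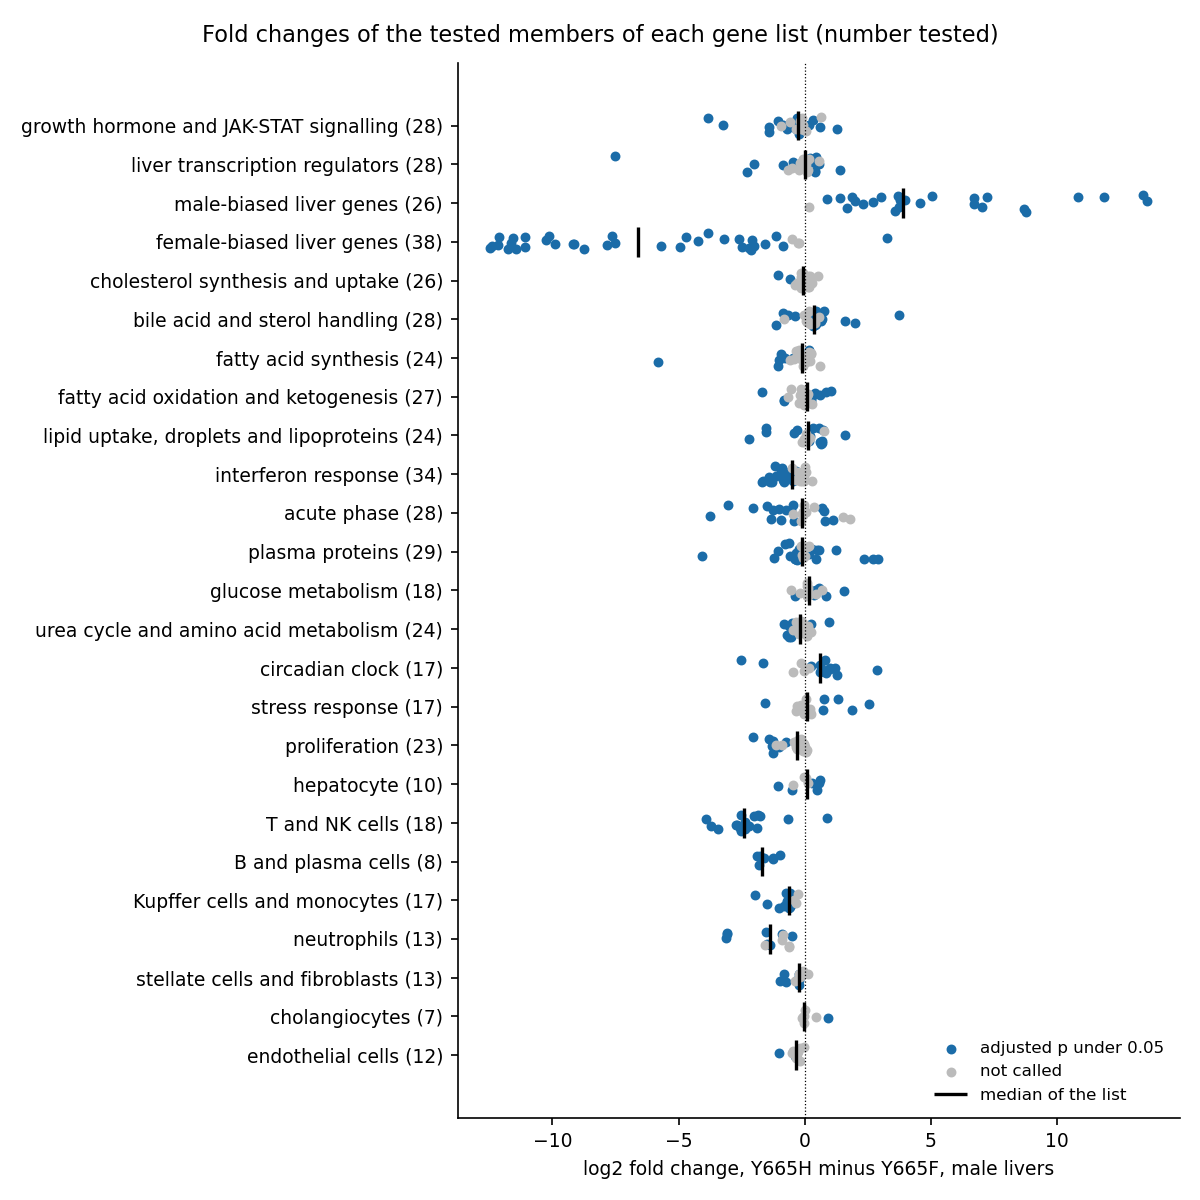
Log2 fold change of Y665H relative to Y665F (x axis) for every tested member of each gene list (rows, number tested in brackets), coloured by whether it passed an adjusted p of 0.05; the bar is the list's median. The medians of the male-biased and female-biased lists, 3.89 and -6.59, stand furthest from 0.

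In the growth hormone and JAK-STAT pathway, 4 of 28 genes were higher and 14 lower in Y665H, with a median log2 fold change of -0.27; with a component of clock gene expression as covariate 3 were higher and 9 lower (median -0.23). Among the receptors, Prlr, the prolactin receptor, had 144, 57.0, 75.2 and 114 CPM in Y665H against 646, 1356 and 1863 CPM in Y665F (log2 fold change -3.82 ± 0.24, adjusted p = 2.30e-15). Ghr, the growth hormone receptor, had 689.5, 664.6, 617.3 and 608.3 CPM against 516, 1161 and 1650 CPM (log2 fold change -0.87 ± 0.14, adjusted p = 7.63e-06). Prlr did not overlap, while the lowest Y665F value of Ghr, in replicate 2, was below all Y665H values. Stat5b itself had 83.1, 102, 87.6 and 92.9 CPM against 101, 109 and 114 CPM, a log2 fold change of -0.25 ± 0.08 (adjusted p = 0.0103) that lost its call without Y665H replicate 1 (-0.19, adjusted p = 0.0671). Stat5a, the neighbouring paralog on chromosome 11, had 20.0, 23.0, 18.8 and 22.0 CPM against 20.1, 27.3 and 34.0 CPM (log2 fold change -0.34 ± 0.10, adjusted p = 0.00615). These counts cover both transcripts as a whole and do not show the substituted codon. With the clock component, Stat5b gave -0.04 (adjusted p = 0.807) and Stat5a -0.19 (adjusted p = 0.303).

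The feedback inhibitor Socs2 had 16.2, 8.90, 14.0 and 9.70 CPM in Y665H against 55.5, 98.0 and 221 CPM in Y665F (log2 fold change -3.24 ± 0.41, adjusted p = 7.69e-08). Its ranges did not overlap. Cish, the other direct STAT5 target among the inhibitors, had 40.6, 6.88, 6.78 and 23.2 CPM against 16.8, 28.6 and 69.5 CPM, and its log2 fold change of -0.95 ± 0.54 did not pass (adjusted p = 0.159). Without Y665H replicate 1 it gave -1.60 (adjusted p = 0.0382), and without the 3 libraries high in acute phase genes -0.07 (adjusted p = 0.946). Igf1 had 575.6, 441.8, 411.6 and 492.8 CPM against 550, 803 and 916 CPM (log2 fold change -0.72 ± 0.11, adjusted p = 2.35e-06). Igfals, which holds IGF1 in its circulating complex, had 101, 88.4, 89.2 and 90.0 CPM against 163, 193 and 218 CPM (log2 fold change -1.04 ± 0.10, adjusted p = 1.18e-10). Igf1 overlapped in a single pair, Y665H replicate 1 above Y665F replicate 2, and Igfals not at all. Igfbp2, an IGF-binding protein that growth hormone lowers, had 405, 353, 292 and 333 CPM against 90.8, 154 and 209 CPM (log2 fold change 1.28 ± 0.16, adjusted p = 7.91e-08). Igfbp4 had a log2 fold change of -0.24 ± 0.09 (adjusted p = 0.0257), which lost its call in 3 of the fits that left out 1 library: Y665F replicate 5 (adjusted p = 0.0508) and Y665H replicates 3 (0.0716) and 4 (0.112). It also lost its call with the replicate number as a block (-0.19, adjusted p = 0.166).

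Among 28 transcription regulators of liver, 9 were higher and 5 lower, with a median log2 fold change of 0.02, and the 14 of 28 called stand near the 41.7% over all genes. With the clock component as covariate 2 were higher and 6 lower (median -0.01). Cux2, the female-specific repressor, had 0.588, 0.560, 0.453 and 0.837 CPM in Y665H against 65.1, 115 and 133 CPM in Y665F (log2 fold change -7.50 ± 0.52, adjusted p = 6.13e-14). Bcl6, the male-biased repressor, had 28.4, 46.5, 69.5 and 13.1 CPM against 10.5, 13.9 and 23.1 CPM (log2 fold change 1.42 ± 0.27, adjusted p = 7.47e-05). Cux2 was separated in every library, whereas Bcl6 in Y665H replicate 4 lay within the Y665F range. Without Y665H replicates 2 and 3 and Y665F replicate 2, Bcl6 gave 0.61 (adjusted p = 0.137). Esr1, the estrogen receptor, and Trim24, a nuclear receptor cofactor, both named here after their values were seen, had log2 fold changes of -2.30 and -2.02. Hnf4a, the regulator of hepatocyte identity, had 767, 821, 751 and 786 CPM against 633, 772 and 834 CPM and no detected difference (log2 fold change 0.04 ± 0.08, adjusted p = 0.759; -0.01 with upper-quartile scaling). Onecut1 did not pass either (log2 fold change -0.20 ± 0.43, adjusted p = 0.745).

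Families of closely related genes differed in how many members passed. All 13 tested Mup genes were higher in Y665H, with a median log2 fold change of 7.05, and Mup3, the one with the smallest difference, still had 6253, 6905, 5649 and 5399 CPM against 1530, 1772 and 2326 CPM. The share of alignments with more than 1 place, given above, was highest in Y665H replicates 2 and 3 (30.1% and 27.4%), which also had the highest Mup7 and Mup20; its part in these values was not tested. All 3 tested Cyp2b genes were lower, and all 4 tested Cyp2j genes were called higher at 0.17 to 1.01; Cyp2j5 lost that call in 16 alternatives, and 1 of the 4 was called without the 3 libraries high in acute phase genes, although the family's median went from 0.48 to 0.61. Cyp2b10, the classic target of the receptor CAR, had 11.2, 22.5, 13.6 and 22.4 CPM against 36.1, 80.0 and 91.2 CPM (log2 fold change -2.12 ± 0.33, adjusted p = 3.05e-06). Cyp3a genes split into 2 higher and 4 lower of 8 tested. Cyp3a11, the main hepatic drug-metabolising form in both sexes, had 4193, 3703, 2871 and 3921 CPM against 672, 945 and 1571 CPM (log2 fold change 1.84 ± 0.26, adjusted p = 4.96e-07). Of 17 tested sulfotransferases, 13 were lower and 2 higher; Sult2a7 was among the latter, at 1.68, 2.73, 8.96 and 2.40 CPM against 0.563, 0.876 and 1.41 CPM. Its log2 fold change of 2.06 was 1.29 without Y665H replicate 3 and 1.06 without the 3 libraries, which ended the call (adjusted p = 0.0656). The glutathione transferases gave 2 higher and 4 lower of 21, a share of 28.6%, and 6 higher and 3 lower without the 3 libraries. The glucuronosyltransferases gave 9 higher and 6 lower of 19, with Ugt2b37 at -4.88 ± 0.54 (adjusted p = 3.27e-09). Hsd3b1 had 2 counts in all Y665H libraries together and 0.840 to 2.95 CPM in Y665F, 188-fold lower with an exact 95% counting interval of 52.0-fold to 1557-fold.

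Cholesterol synthesis and uptake genes hardly separated the 2 substitutions. Of 26 tested, 0 were higher and 2 lower by edgeR's test, and the median log2 fold change was -0.06. Sqle, squalene epoxidase, had 97.1, 98.7, 96.4 and 67.0 CPM in Y665H against 57.2, 92.6 and 197 CPM in Y665F (log2 fold change -0.22 ± 0.31, adjusted p = 0.610). The groups overlapped in all 26 genes. With this SE, a difference of that size in Sqle was not detectable, and a missed threshold does not show equal levels. The genes called were Mvd and Pmvk of the mevalonate pathway, at -1.07 ± 0.31 (adjusted p = 0.00523) and -0.57 ± 0.22 (adjusted p = 0.0346). Pmvk lost its call without Y665F replicate 6 (adjusted p = 0.0567) and without Y665H replicates 1, 2 or 3 (0.0674, 0.135 and 0.0790). Without the 3 libraries high in acute phase genes neither passed (adjusted p = 0.0999 for Mvd and 0.359 for Pmvk), and with the clock component neither did (0.120 and 0.357). The list gave 1 higher and 0 lower without the 3 libraries (median 0.10) and 0 in either direction with the clock component (median 0.14). Relative to the 6 WT males, which both comparisons share, 22 of the 26 genes were higher in Y665F (median 0.73) and 17 in Y665H (median 0.75). Sqle was at 15.8 to 19.6 CPM in WT. With the replicate number as a block, the count between the substitutions was 2 higher and 8 lower, and Sqle passed (-0.43, adjusted p = 0.0483).

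Bile acid and sterol handling genes were more often higher in Y665H: 14 higher and 4 lower of 28, with a median log2 fold change of 0.37. Scp2, which carries sterols and holds a peroxisomal thiolase, had 3203, 3673, 3120 and 2974 CPM in Y665H against 805, 1110 and 1138 CPM in Y665F (log2 fold change 1.61 ± 0.10, adjusted p = 2.76e-15). Cyp7b1, of the alternative bile acid pathway, had 118, 339, 202 and 104 CPM against 32.0, 43.2 and 69.4 CPM (log2 fold change 2.01 ± 0.21, adjusted p = 8.31e-10, or 1.18 without the 3 libraries high in acute phase genes). Neither overlapped. Cyp7a1, the rate-limiting enzyme of the classic pathway, had 86.3, 24.5, 216 and 57.5 CPM against 57.8, 170 and 336 CPM and did not pass edgeR's test (log2 fold change -0.83 ± 0.37, adjusted p = 0.0686), though it did pass limma-voom's (-1.12, adjusted p = 0.0108). By edgeR it passed without Y665H replicate 3 (-1.60, adjusted p = 0.000986) and without Y665F replicate 3 (-0.95, adjusted p = 0.0295), and also without the 3 libraries high in acute phase genes (-1.22, adjusted p = 0.0246). Without Y665H replicate 2 it gave -0.50 (adjusted p = 0.292). Cyp8b1 gave 0.42 ± 0.25 (adjusted p = 0.185). The transporters Slco1a1 and Slco1a4 went opposite ways, at 3.73 ± 0.37 and -1.12 ± 0.24 (adjusted p = 3.68e-10 and 0.000323).

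Of 24 fatty acid synthesis genes, 1 was higher and 6 lower, with a median log2 fold change of -0.09. The 29.2% called was below the 41.7% over all genes. Pnpla3, the lipid droplet hydrolase whose human form is tied to fatty liver, had 0.529, 0.632, 0.853 and 1.17 CPM in Y665H against 8.21, 27.7 and 88.1 CPM in Y665F (log2 fold change -5.81 ± 0.64, adjusted p = 3.15e-09). The ranges were apart. Scd1 and Fasn, the stearoyl-CoA desaturase and the fatty acid synthase, overlapped: Scd1 had 6426, 7811, 9324 and 18118 CPM against 2331, 6815 and 10165 CPM (log2 fold change 0.60 ± 0.35, adjusted p = 0.175), and Fasn gave -0.32 ± 0.32 (adjusted p = 0.449). Y665H replicate 4 was the highest of all 13 for Scd1, and without it the log2 fold change was 0.20 (adjusted p = 0.707). The single higher gene, Dgat1, had a log2 fold change of 0.18 ± 0.06 (adjusted p = 0.0102), lost without Y665H replicate 1 (adjusted p = 0.0623) and with the clock component (adjusted p = 0.495). Of the fatty acid oxidation genes 44.4% were called, near the 41.7% over all genes. They gave 9 higher and 3 lower of 27 with a median of 0.08, led by the peroxisomal thiolase Acaa1b (1.04 ± 0.18, adjusted p = 1.83e-05). That split moved to 8 higher and 7 lower without Y665F replicate 2 and to 7 higher and 5 lower without Y665H replicate 4. It was 4 higher and 6 lower with the clock component (median -0.04) and 9 higher and 1 lower without the 3 libraries high in acute phase genes (median 0.18). Pdk4, which restrains pyruvate use, had a log2 fold change of -1.68, which ranged from -1.96 to -0.92 over the alternatives. Its highest adjusted p, 0.0492, came with the clock component.

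Among 24 genes of lipid uptake, droplets and lipoproteins, 10 were higher and 5 lower (median 0.15), or 5 and 4 with the clock component (median 0.12). The fatty acid translocase Cd36 had 39.6, 36.9, 36.8 and 97.6 CPM in Y665H against 71.7, 164 and 212 CPM in Y665F (log2 fold change -1.55 ± 0.28, adjusted p = 3.23e-05). Vldlr, the VLDL receptor, had 7.48, 2.02, 2.32 and 8.51 CPM against 13.9, 22.3 and 34.7 CPM (log2 fold change -2.20 ± 0.33, adjusted p = 1.69e-06), and Apoa4 44.6, 103, 76.2 and 71.1 CPM against 168, 210 and 275 CPM (log2 fold change -1.51 ± 0.19, adjusted p = 3.70e-08). Cd36 overlapped through Y665H replicate 4, and the other 2 genes did not overlap. Mogat1 rose by 1.59 ± 0.33 (adjusted p = 0.000166), or by 0.93 without Y665H replicate 4. Pparg, its known regulator in fatty liver, had a log2 fold change of 0.46 ± 0.17 (adjusted p = 0.0260) that was lost without Y665H replicate 1 (0.105) or 4 (0.29 on the log2 scale, adjusted p = 0.196) and with the clock component (adjusted p = 0.756). The replicate block also ended its call (adjusted p = 0.0957). Of 18 glucose metabolism genes, 6 were higher and 1 lower, a share of 38.9%, near the 41.7% over all genes. The counts were 3 and 1 with the clock component, and 5 and 2 without the 3 libraries high in acute phase genes. Pfkfb3, a glycolytic regulator, was at 1.56 ± 0.25 (adjusted p = 4.08e-06), or 0.72 with the clock component (adjusted p = 0.0572). Fbp1, of gluconeogenesis, was at -0.37 ± 0.08 (adjusted p = 0.000463). Of 24 urea cycle and amino acid genes, 2 were higher and 7 lower (1 and 6 without the 3 libraries, 4 and 9 from male libraries only). The 37.5% called was near the 41.7% over all genes. Tdo2, which opens tryptophan breakdown, rose by 0.98 ± 0.11 (adjusted p = 5.30e-09) and Got1 fell by 0.81.

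Plasma protein genes held the largest amounts of RNA that differed. Alb, albumin, had 62347, 43886, 43802 and 61274 CPM in Y665H against 101758, 110793 and 118630 CPM in Y665F (log2 fold change -1.07 ± 0.11, adjusted p = 4.69e-10). All Y665H values lay below the lowest Y665F value, and replicates 2 and 3 were the lowest. The 10 most abundant genes held 15.3% ± 1.12 (SD, n = 4) of the gene counts in Y665H and 22.0% ± 0.713 (SD, n = 9) in Y665F (exact 2-sided permutation test, p = 0.0028, the smallest that 715 splits allow, adjusted p = 0.00839). Without Alb the difference was -1.64 percentage points in place of -6.66. Of 29 plasma protein genes, 9 were higher and 12 lower, with a median of -0.10. Serpina6, corticosteroid-binding globulin, had 287, 111, 130 and 209 CPM against 534, 3360 and 4895 CPM (log2 fold change -4.06 ± 0.37, adjusted p = 5.85e-11). The terminal complement component C9 had 354, 740, 543 and 311 CPM against 30.2, 44.2 and 172 CPM (log2 fold change 2.905 ± 0.31, adjusted p = 2.00e-09), and C8a and C8b, named after their values were seen, rose by 2.71 and 2.34. In all 4 genes the groups did not overlap. Complement C3 went the other way, with 10975, 10186, 10442 and 8528 CPM against 14713, 16277 and 22046 CPM (log2 fold change -0.73 ± 0.10, adjusted p = 4.31e-07).

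Acute phase genes did not move together: 4 of 28 were higher and 12 lower, with a median of -0.12. Mt2, a metallothionein, had 11.5, 10.7, 9.34 and 4.44 CPM in Y665H against 78.9, 103 and 264 CPM in Y665F (log2 fold change -3.76 ± 0.48, adjusted p = 7.89e-08). Serum amyloid Saa2 had 7.85, 646, 500 and 11.5 CPM against 10.4, 18.1 and 774 CPM, and Saa1 27.2, 907, 694 and 54.0 CPM against 14.8, 25.1 and 874 CPM. In both, Y665H replicates 2 and 3 and Y665F replicate 2 were high and the other 10 libraries low. Saa2 did not pass (log2 fold change 1.51 ± 0.87, adjusted p = 0.161). Without Y665F replicate 2 it gave 3.99 (adjusted p = 1.13e-06), without all 3 of those libraries -0.91 (adjusted p = 0.156), and with the clock component 5.41 (adjusted p = 0.000215). Lcn2, lipocalin-2, gave -0.06 ± 0.68 (adjusted p = 0.952), 1.10 without Y665F replicate 2 (adjusted p = 0.0783), -2.40 without the 3 libraries (adjusted p = 0.00111) and 2.51 with the clock component (adjusted p = 0.0148). Lrg1 passed at 1.14 ± 0.32 (adjusted p = 0.00389) but not without the 3 libraries (0.58, adjusted p = 0.0728) or with the replicate block (0.86, adjusted p = 0.0693). For the whole list, leaving out Y665F replicate 2 gave 7 higher and 11 lower (median 0.07), leaving out Y665H replicate 3 gave 2 higher and 13 lower (median -0.37), and leaving out all 3 libraries gave 1 higher and 15 lower (median -0.59). The clock component turned the balance, to 11 higher and 6 lower (median 0.32).

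Markers of lymphocytes were lower in Y665H than in Y665F in nearly every gene. Of 18 tested T and NK cell markers, 17 were lower and 1 higher, with a median log2 fold change of -2.39. Gzmb, granzyme B, had 0.103, 0.172, 0.163 and 0.152 CPM in Y665H against 1.33, 2.42 and 3.23 CPM in Y665F (log2 fold change -3.92 ± 0.28, adjusted p = 8.99e-14), and Zap70, the T cell receptor kinase, 6.54, 5.87, 6.08 and 5.77 CPM against 14.0, 22.0 and 24.6 CPM (log2 fold change -1.78 ± 0.16, adjusted p = 2.25e-11). Their ranges were apart. The exception was Cd4, with 1.98, 4.22, 3.43 and 1.10 CPM against 0.738, 1.497 and 1.781 CPM (log2 fold change 0.90 ± 0.22, adjusted p = 0.00103). Cd4 gave 0.60 without Y665H replicate 2 and 0.10 without the 3 libraries high in acute phase genes (adjusted p = 0.808). With the replicate block it gave 0.92 (adjusted p = 0.0633). The summed level of the 18 tested T and NK markers was 11.0 to 15.0 CPM in Y665H, 34.5 to 56.3 CPM in Y665F and 14.3 to 20.8 CPM in WT. None of the 19 markers in the files was at 0 in all 13 livers. In whole liver, fewer cells of a type and less RNA per cell cannot be told apart. All 8 tested B and plasma cell markers were lower (median -1.68), with Jchain, which joins secreted antibodies, at 2.79, 2.63, 4.08 and 2.56 CPM against 8.69, 10.1 and 15.2 CPM.

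Of 17 Kupffer cell and monocyte markers, 14 were lower and 0 higher (median -0.64). Clec4f, specific to Kupffer cells, had 75.3, 90.5, 88.6 and 86.3 CPM against 90.7, 134 and 213 CPM (log2 fold change -0.75 ± 0.18, adjusted p = 0.00115). With the clock component Clec4f gave -0.37 (adjusted p = 0.238). Its ranges just failed to overlap, and the summed levels did overlap, at 392 to 535 CPM in Y665H and 424 to 947 CPM in Y665F. Without the 3 libraries high in acute phase genes, 8 of the 17 were called lower and the median was -0.55. Neutrophil markers gave 8 lower and 0 higher of 13 (median -1.38), but 5 lower without Y665F replicate 2, which alone held 66.1 CPM of them against at most 13.5 CPM in any other of the 13 livers, and 5 lower without Y665H replicate 1 or 2. It was 4 lower of 12 without all 3 libraries (median -1.04), and with the clock component 0 were lower and 1 higher (median -0.14). Prtn3, a granule protease, was at 44.5 CPM in that replicate and between 0.291 and 0.734 CPM in the other 8 Y665F livers, against 0.265, 1.95, 4.75 and 0.228 CPM in Y665H; its log2 fold change was -1.59 ± 1.04 (adjusted p = 0.227) with it and 1.896 (adjusted p = 0.00326) without it, and 5.16 with the clock component (adjusted p = 0.00866). Interferon response genes gave 20 lower and 0 higher of 34 (median -0.51). Zbp1, a nucleic acid sensor, had 3.47, 7.39, 5.02 and 3.23 CPM against 11.1, 14.9 and 23.4 CPM (log2 fold change -1.69 ± 0.21, adjusted p = 5.34e-08). With the clock component as covariate the interferon list gave 4 higher and 9 lower (median -0.15) and the Kupffer list 0 higher and 2 lower (median -0.48). The part of the immune markers in the other lists' values was not tested.

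**Figure D4:**
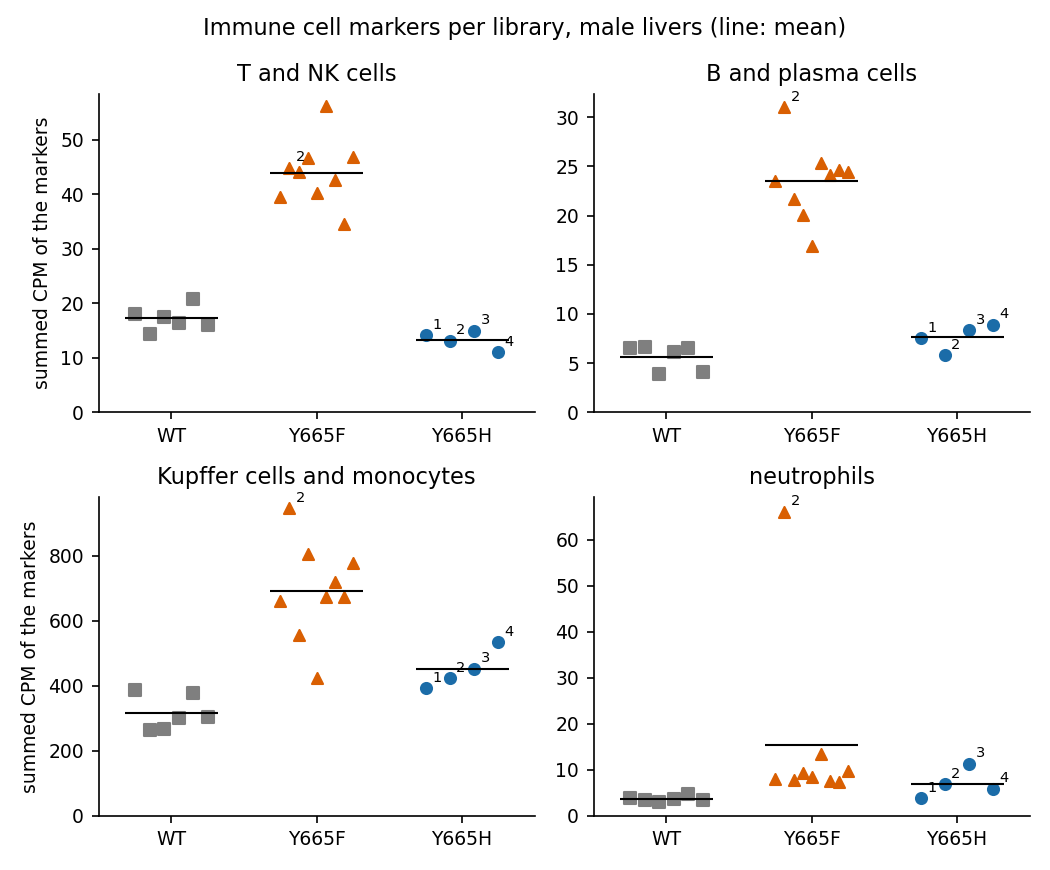
Summed CPM (y axes, from 0) of the tested markers of 4 immune cell types by genotype (x axes). Each point is 1 male liver, the line is the mean, and numbers mark the Y665H replicates and Y665F replicate 2. T and NK markers lie at 11.0 to 15.0 CPM in Y665H, below all Y665F livers.

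Mki67, a proliferation gene, had 3.78, 4.05, 3.79 and 5.18 CPM in Y665H against 12.2, 17.8 and 23.2 CPM in Y665F (log2 fold change -2.04 ± 0.33, adjusted p = 4.65e-06). Of 23 proliferation genes, 7 were lower and 0 higher (median -0.30), and the 30.4% called was below the 41.7% over all genes. The count fell to 4 without Y665H replicate 1, to 3 without Y665H replicate 3, to 2 without the 3 libraries high in acute phase genes (median -0.46) and to 1 with the clock component (median -0.04), and rose to 12 from male libraries only and 11 from the libraries compared only. Stellate cell markers gave 8 lower of 13 (median -0.24), among them Col1a1, a collagen chain, at 20.4, 19.1, 16.7 and 19.5 CPM against 22.5, 32.7 and 59.2 CPM; that count was 5 without Y665F replicate 6, Y665H replicate 1 or Y665H replicate 4 3 without Y665H replicate 3, 2 without the 3 libraries (median -0.23) and 4 with the clock component (median -0.25). Col1a1 itself gave -0.97 and, without the 3 libraries, -0.96 (adjusted p = 0.0543). Endothelial markers gave 2 lower of 12 (6 without Y665H replicate 4, 0 without the 3 libraries, 4 with upper-quartile scaling, 7 with limma-voom, and 9 each from male libraries only, from the libraries compared only and with the replicate block) and cholangiocyte markers 1 higher of 7. Alas2, the erythroid form of the first heme synthesis enzyme, had 96.3, 117, 107 and 118 CPM against 12.0, 19.7 and 22.5 CPM (log2 fold change 2.57 ± 0.13, adjusted p = 1.79e-17), while none of the other 3 tested erythroid genes passed and the 4 globin genes had 0 counts in all 13 libraries. Of the 9 pancreas markers 2 were tested, and Cela1, an elastase, had 19.7, 23.9, 18.9 and 13.9 CPM against 4.78, 6.07 and 9.01 CPM (log2 fold change 1.55 ± 0.18, adjusted p = 7.04e-09). Of the 7 adipose tissue markers only Cfd, complement factor D, was tested; it had 0.353, 0.172, 0.109 and 0.746 CPM against 0.0138, 0.0424 and 0.116 CPM (log2 fold change 2.71 ± 0.51, adjusted p = 4.96e-05). Cela1 did not overlap and Cfd did.

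Clock genes differed in one direction for most members: 11 of 17 were higher and 2 lower, with a median of 0.61. Ciart, a clock repressor, had 15.2, 1.31, 6.77 and 8.17 CPM in Y665H against 0.613, 0.861 and 1.904 CPM in Y665F (log2 fold change 2.89 ± 0.39, adjusted p = 2.61e-07). Npas2, an activator, had 0.250, 1.72, 0.417 and 0.502 CPM against 1.28, 2.79 and 8.15 CPM (log2 fold change -2.51 ± 0.48, adjusted p = 5.85e-05), and Nr1d1 had no detected difference (0.17 ± 0.20, adjusted p = 0.529). Y665H replicate 2 lay within the Y665F range for both Ciart and Npas2. Without Y665H replicate 1, 7 clock genes were higher. With the clock component, which is built from these 17 genes, 1 was higher and 1 lower (median 0.0029), and Ciart and Npas2 did not pass (adjusted p = 0.366 and 0.499). The hour at which livers were taken is not given in the sources used here. Stress genes gave 5 higher and 1 lower of 17 (2 and 1 without the 3 libraries high in acute phase genes), and the 35.3% called was below the 41.7% over all genes. Hspa1a, a heat shock protein, was at 5.28 CPM in Y665H replicate 2 and at 0.235 to 0.822 CPM in the other 3. Its log2 fold change of 2.54 was 0.80 without that library (adjusted p = 0.0966) and 0.79 without the 3 libraries (adjusted p = 0.183).

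The Y665H livers were not uniform in all genes. The median SD of log2 CPM was 0.117 over the 4 Y665H and 0.122 over the 9 Y665F livers (11856 genes), and the SD exceeded 1 in 45 and 23 genes. An SD over 4 livers varies more by sampling than one over 9, so these 2 counts do not compare the spread of the groups. Replicates 2 and 3 were high in the serum amyloids, Mup7, Mup9, Tff3 and Selenbp2. Replicates 1 and 4 were high in Cyp2b9 (32.0 and 43.2 against 2.11 and 3.30 CPM), Acot3 (20.4 and 15.7 against 1.02 and 2.10 CPM), Cish and Vldlr. Every one of these Cyp2b9 values was still below the lowest Y665F value, 444 CPM. Hamp, the iron hormone hepcidin, had 1.35, 93.0, 285 and 115 CPM against 153, 305 and 426 CPM in Y665F; its log2 fold change of -1.32 ± 0.55 (adjusted p = 0.0488) lost its call in 16 of 24 alternatives, among them -0.90 without Y665H replicate 1 (adjusted p = 0.0743), and was -2.14 without replicate 3 (adjusted p = 0.00538). Ccdc71 (chr9:108460527-108465938), a coiled-coil protein gene of unknown function, had 17.7, 17.0, 9.31 and 0.0609 CPM against 16.3, 17.7 and 18.0 CPM in Y665F and 14.1 to 17.2 CPM in WT. Its neighbour Klhdc8b (chr9:108447636-108461581), whose annotated span overlaps that of Ccdc71, had 8.39, 4.91, 4.30 and 0.0304 CPM, or 2 counts in replicate 4, against 4.55, 4.99 and 11.3 CPM in Y665F. The other genes tested within 100 kb stood at 89.5% to 164% of their Y665F means in replicate 4. Neither gene passed edgeR's test of the contrast (adjusted p = 0.159 for Ccdc71 and 0.426 for Klhdc8b, which was named after its value was seen), while limma-voom called Ccdc71 (-2.21, adjusted p = 0.00490).

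**Figure D5:**
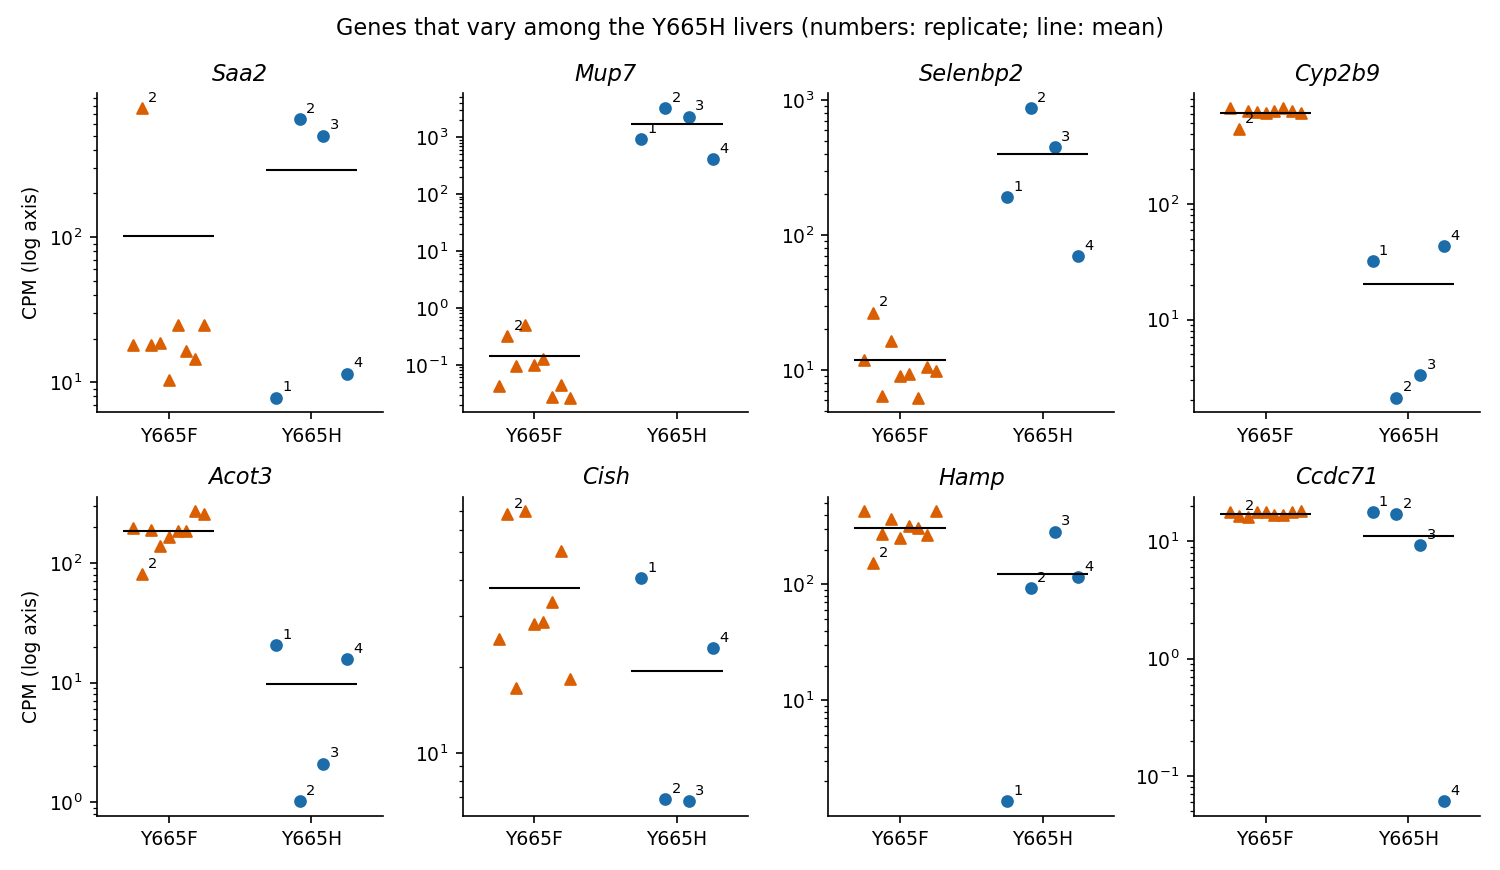
CPM (log y axes) of 8 genes that varied among the Y665H livers, by genotype (x axes); each point is 1 male liver, numbers give the Y665H replicates and Y665F replicate 2, and the line is the mean. Saa2 is high in Y665H replicates 2 and 3, at 646 and 500 CPM, and Ccdc71 is at 0.0609 CPM in replicate 4.

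Set beside the WT males, the 2 substitutions differed in how many genes were called. The 2 tests had unequal power, with 9 Y665F, 4 Y665H and 6 WT libraries. A count of calls is therefore not a count of genes changed. Y665F relative to WT gave 7955 calls (52.5%), 4118 higher and 3837 lower, and Y665H relative to WT gave 1273 (8.40%), 791 higher and 482 lower. The share of higher calls in the latter, 62.1%, was 52.5% with upper-quartile scaling, 52.2% from male libraries only and 50.5% with the replicate block. Both comparisons share the WT libraries and each shares libraries with the direct contrast. The Y665H count ranged from 519 (without Y665H replicate 3) to 1124 when 1 library was left out, and was 644 without Y665H replicate 2, 799 without WT replicate 5 and 386 without the 3 libraries high in acute phase genes. It rose to 2012 from male libraries only and to 2186 from the libraries compared only. The levels given for WT in this text lie nearer to Y665H than to Y665F for Mup20 (2651 to 4653 CPM), Cyp2d9 (1613 to 1839 CPM), A1bg (0.0461 to 0.657 CPM), Cux2 (0.603 to 0.937 CPM) and Alb (51783 to 60594 CPM). The mean of A1bg was 0.828 CPM in Y665H and 0.204 CPM in WT, against 3772 CPM in Y665F. Ugt2b38 differed from WT in both comparisons: it had 1.38, 3.17, 2.88 and 0.944 CPM in Y665H, a median of 0.415 CPM in Y665F and 5.99 to 12.6 CPM in WT. Hsd17b6, an androgen-converting enzyme, was called lower in Y665H than in either group, at 123, 50.3, 42.9 and 114 CPM, overlapping in part with 77.8 to 239 CPM in Y665F; WT, at 172 to 304 CPM, did not overlap.

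The contrast itself differed between male and female livers, whose libraries held 24388434 to 38818886 gene counts in females of both substitutions. The test of that difference called 4189 genes (27.6%), or 2079 with the clock component as covariate. Of the 4189, 1812 had a more positive and 2377 a more negative value in males. That balance was not stable: 43.3% of the calls were more positive, against 50.5% with RLE scaling, 49.9% with upper-quartile scaling, 50.6% without a filter and 55.3% from the libraries compared only. Among genes of separate ranges in males, the most negative differences were in Cyp2b13, Cyp2c69 and Sult2a5. Cyp2b13 was 0.127 ± 0.0575 CPM (SD, n = 4) in Y665H males and 74.5 ± 42.4 CPM (SD, n = 9) in Y665F males, but 304 ± 184 CPM (SD, n = 6) in Y665H females and 11.2 ± 5.47 CPM (SD, n = 6) in Y665F females. The log2 fold change was -9.16 in males and 4.76 in females, a difference of -13.92 ± 0.81 (adjusted p = 1.38e-14). Cyp2c69 gave -11.57 in males and 0.75 ± 0.46 in females (difference adjusted p = 1.99e-11). The most positive differences were in Tff3, Serpina1e and Selenbp2. Serpina1e, an alpha-1-antitrypsin paralog, was 3582 ± 1390 CPM (SD, n = 4) in Y665H and 259 ± 433 CPM (SD, n = 9) in Y665F males, against 192 ± 171 CPM (SD, n = 6) and 506 ± 216 CPM (SD, n = 6) in females. Its log2 fold change was 3.79 in males and -1.40 in females (difference 5.19 ± 0.87, adjusted p = 3.05e-05). Among the Y665F males, replicate 2 was at 1411 CPM and the others at 70.8 to 172 CPM. Without that replicate the log2 fold change in males was 4.96. Over the female-biased list the median was -6.59 in males and -0.48 in females, and over the male-biased list 3.89 and 2.22.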

How the data were processed

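Total RNA of mouse liver was sequenced in 37 libraries, of which 13 enter the main contrast. Ribosomal RNA was removed and a stranded total RNA kit was used, per the labels' protocols, which also name library preparation by another maker's protocol. The deposited files hold counts of reads per gene, not normalized. The submitters' processing notes name the build mm10 and FastQC 0.11.9, Trimmomatic 0.36, STAR, SAMtools 1.9, Picard 2.9.2 and HTSeq 0.9.1; their settings, the strand option and the annotation are not given in the sources used here. The 5 rows that name no gene (no feature, alignments to more than 1 place and the like) held 39.7% to 44.0% of all items in Y665H and 36.7% to 42.6% in Y665F males, and were left out of library sizes and tests.

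Of 24421 gene rows, 15152 passed edgeR's filterByExpr (minimum count 10, minimum total 15). One edgeR 4.0.16 quasi-likelihood model (R 4.3.3, TMM scaling) of 6 groups by genotype and sex over all 37 libraries gave every log2 fold change, with Benjamini-Hochberg adjustment over all genes tested and a threshold of 0.05. Each SE is the size of the log2 fold change over the root of F. CPM uses TMM-scaled library sizes and is not per length, so levels are compared within a gene only. Library measures were compared by exact permutation tests over 4 and 9 libraries. Genes without a count in 1 group were given a bound from a floor of 3 counts over that group, and ratios resting on 1 to 3 counts an exact 95% interval; both cover counting error only. The fit was tested on simulated data of 15096 genes for the male contrast, where 96%, 78%, 74% and 100% of 50 genes each were recovered at log2 changes of -1, -0.5, 0.5 and 1, with 7 false calls.

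Named genes were the STAT5 genes and sex checks, the 10 highest and 10 lowest calls with separate ranges and a mean of at least 1 CPM, the extreme called and the most abundant members of each list, a fixed panel, the 5 most variable genes of each group with a mean of at least 5 CPM, and the 3 highest and 3 lowest differences between the sexes. Other genes were named after their values were seen, and not all of them are marked so where they appear. Of the genes chosen this way, some are not reported here. The members and lists were chosen with earlier results of these data known. Coordinates are from GENCODE M21 (GRCm38, the build also called mm10), which held 95.8% of the gene rows. The alternatives were other scalings, filters, tests (DESeq2 and limma-voom) and sample sets, a replicate block, a covariate for the share in no gene and each library left out. After the data were seen, leaving out the 3 libraries high in acute phase genes and a covariate from 17 clock genes were added.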

Additional observations from a re-analysis of the deposited data

Results flagged for a closer look

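Of 284 gene and group pairs, 40 had 1 library standing apart from the rest of its group by Dixon's ratio; chance gives about 1 in 20, a rate that does not apply here, since the genes include some chosen for their spread and most flags share 1 library.

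Most concerned Y665F replicate 2. It was the highest of its group for Saa2 (774 CPM), Saa1 (874 CPM), Lcn2 (256 CPM), Lrg1 (1051 CPM), Mt2 (264 CPM), C3 (22046 CPM), Prtn3 (44.5 CPM), Csf3r (6.11 CPM), Serpina1e (1411 CPM) and Tff3 (0.0994 CPM). It was the lowest for Ghr (516 CPM), Prlr (646 CPM), Igf1 (550 CPM), Cux2 (65.1 CPM), Serpina6 (534 CPM), Cyp2b9 (444 CPM), Cyp2b10 (36.1 CPM) and Hamp (153 CPM). The same held for Scp2 (805 CPM), Acaa1b (336 CPM), Fbp1 (816 CPM), Got1 (242 CPM) and Reln (161 CPM). Its share of items in no gene, 19.9%, was also apart from the 13.9% to 16.8% of the other 8 libraries.

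Y665F replicate 8 was highest for Cyp3a16 (523 CPM) and Apob (14436 CPM) and lowest for Pnpla3 (8.21 CPM), Scd1 (2331 CPM) and Sult2a1 (117 CPM). Single flags fell on Mup9 in Y665F replicate 1 (0.0416 CPM), Sult2a3 in replicate 9 (2.85 CPM) and Cd4 in replicate 5 (0.738 CPM).

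Among the Y665H livers, replicate 1 was highest for Mvd (27.7 CPM), Igfals (101 CPM) and Reln (204 CPM) and lowest for Sox9 (4.19 CPM). Replicate 2 was lowest for Pfkfb3 (19.0 CPM) and replicate 3 for Cyp4a31 (4.73 CPM). Replicate 4 was highest for Cd36 (97.6 CPM) and lowest for Sqle (67.0 CPM) and Ccdc71 (0.0609 CPM).

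The contrast of the substitutions differed between male and female livers, by edgeR's test of the difference, in Tff3 (5.45 on the log2 scale, adjusted p = 0.00444), Serpina1e (5.19, adjusted p = 3.05e-05), Selenbp2 (4.80, adjusted p = 1.40e-07), Cyp2b13 (-13.92, adjusted p = 1.38e-14) and Cyp2c69 (-12.32, adjusted p = 1.99e-11). It also differed in Sult2a5 (-10.84, adjusted p = 0.000199), whose value depends on the prior count because Y665H males had no count.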

How the results depend on the processing

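Of 142 named genes, 117 were called. Of these, 84 kept their call in every alternative and 33 lost it in at least 1. Of the 25 others, 12 passed in the same direction in at least 1 alternative. Prtn3 and, with the clock component, Lcn2 passed in the opposite direction. The contrast of the substitutions gave 6664 calls with DESeq2, 6690 with limma-voom, 4484 without the 3 libraries high in acute phase genes and 4461 with the clock component as covariate. Requiring a log2 fold change of at least 1 gave 1256 calls, 1550 for Y665F against WT, 182 for Y665H against WT and 973 for the difference between the sexes. Without that requirement, the difference between the sexes had 4189 calls in the main fit and 2079 with the clock component. Calls of Y665H against WT were 2012 from male libraries only, 2186 from the libraries compared only, 543 with the share in no gene as covariate and 386 without the 3 libraries. Leaving out 1 library at a time gave 5542 to 6327 calls between the substitutions, 7488 to 8005 for Y665F and 519 to 1124 for Y665H against WT, and 3086 to 4475 for the sexes. The library measures then ranged from -7.04 to -6.27 percentage points for the 10 most abundant genes, 3.36 to 5.54 for more than 1 place and -2.01 to -0.66 for no gene. The first was -1.64 without Alb and -4.90 for the 50 most abundant genes, and the last -0.60 by medians.

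Same-numbered Y665H and Y665F libraries did not deviate together (r = 0.031, 0.042, -0.022 and -0.119 over genes). These values give no sign of pairing by number, but cannot exclude that libraries were handled together. A replicate block gave 5723 calls between the substitutions, 7536 for Y665F and 990 for Y665H against WT.

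Other list counts, as higher and lower, were: acute phase 1 and 10 with the replicate block; cholesterol 0 and 4 with upper-quartile scaling; clock 7 and 2 from the libraries compared only; Cyp2j 2 and 0 with upper-quartile scaling or without Y665H replicate 2. Fatty acid oxidation gave 7 and 5 with upper-quartile scaling and 7 and 6 with the share in no gene, neutrophils 0 and 5 with that share, and stellate cells 0 and 5 with the block. Glutathione transferases gave 4 and 3 without Y665H replicate 2 and 5 and 3 without replicate 3. Stress genes gave 3 and 2 with the block or the clock component and 3 and 1 without Y665H replicate 2.

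Reversed log2 values were found in 12 genes, and the cause was not tested. With the clock component they were Xist -0.089, Hnf4a -0.088, Nr1d1 -0.14, Pcna 0.11, Prtn3 5.16, Spp1 0.063, Sqle 0.28 and Lcn2 2.51. Without the 3 libraries they were Xist -0.54, Bst2 -0.14 and Saa2 -0.91. With the share in no gene they were Bst2 -0.033, Prtn3 1.51 and Lcn2 0.58, and with the replicate block Bst2 -0.0013 and Spp1 0.025. Upper-quartile scaling gave Hnf4a -0.013 and Bst2 -0.016, and limma-voom Prtn3 0.20 and Onecut1 0.022. Leaving out 1 library at a time gave ranges across 0 for Xist (-0.056 to 0.68), Bst2 (-0.085 to 0.11), Cps1 (-0.073 to 0.023), Prtn3 (-2.68 to 1.896), Spp1 (-0.069 to 0.016) and Lcn2 (-0.65 to 1.10).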

Other observations

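Albumin had the largest difference in mean CPM between the substitutions, 52827 in Y665H and 110738 in Y665F. Transferrin (Trf), the iron carrier of plasma, followed with 14211 and 24265 CPM, and WT was at 13993 CPM. Mug1, a murinoglobulin protease inhibitor, went the other way, with 5335 and 1835 CPM against 5508 CPM in WT.

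A search for genes nearly absent from a single male library, among genes with a median of at least 5 CPM in the rest of its group, found Hamp and Hamp2 in Y665H replicate 1, Ccdc71 in Y665H replicate 4 and Adra2c, Dnah11 and Fgf11 in Y665F replicate 2. The other 16 male libraries had none. Klhdc8b, also nearly absent from Y665H replicate 4, was below that minimum, at a median of 4.91 CPM in the rest.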
